A study of Homo sapiens with 36 samples.

Results

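Genes for voltage-gated and potassium channels were followed in MRC-5 cells, a human fetal lung fibroblast line, while the cells were driven toward neurons. The genes were chosen by name: potassium channel symbols beginning KCN, sodium channel symbols SCN, calcium channel symbols CACNA, CACNB and CACNG, and HCN channel symbols. Of the 23146 loci in the authors' tables, 140 matched, and the 86 that reached 0.2 FPKM (sequenced fragments scaled to transcript length and library depth) in at least 1 of the 12 groups were kept. They hold 60 potassium, 11 sodium, 13 calcium and 2 HCN names. The last genes left out were CACNA1B at 0.185 and KCNMB1 at 0.194 FPKM in their highest group, and the first kept were KCNH7 at 0.223 and KCNJ11 at 0.226 FPKM. One kept name, KCNQ1OT1, is an antisense long noncoding RNA inside the KCNQ1 gene and no channel.

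Total RNA was sequenced from 36 libraries, 3 in each of 12 groups. NFD cells carried a lentivirus for HA-tagged NEUROG2, a proneural transcription factor, and received 10 µM forskolin, which activates adenylyl cyclase, with 1 µM dorsomorphin, an inhibitor of BMP receptor and AMP-activated kinases. N cells carried the NEUROG2 virus alone, FD cells carried a GFP virus and received both small molecules, and GFP cells carried the GFP virus alone. Each condition was sampled at 0.5, 1 and 2 DPT, days after the molecules were added to the cultures that got them. All groups share the cell line, viral transduction and a change to neuron induction medium, except that 1 label of the GFP cells names serum medium while their protocol describes induction medium, so for comparisons with GFP an effect of medium cannot be told apart from those of virus or molecules. The labels state neither the promoter of the viruses nor whether the 3 libraries of a group were separate cultures, so p-values may measure technical spread.

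Every FPKM below is the authors' single value for a group, with no value per library, so no standard deviation is given and the depth is unknown. Fold changes, q-values and calls come from the authors' deposited tables, where each condition is compared with GFP of the same time. A gene is called higher or lower where the deposited q is at or under 0.05. A standard error was implied from each deposited p, and since p stops at 5e-05 (q of 0.000151), these errors are upper bounds for the strongest changes. In bulk RNA, a change in the share of cells that express a gene and a change of its RNA per cell cannot be told apart.

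The introduced NEUROG2 gave 2616, 2565 and 2641 FPKM in N cells at the 3 times, against 36.7, 18.5 and 15.3 FPKM in GFP cells. In NFD cells the locus had too many fragments for the authors' tool and is listed at 0, which is no measured level. All 10 fibroblast markers tested were called lower in NFD cells at 2 DPT in the authors' deposited tables, and their summed level was 1520 FPKM in NFD cells, 6739 in N cells, 6196 in FD cells and 10969 in GFP cells. Of 12 neuron markers, 5 were called higher and 1 lower of 9 tested in NFD cells at 2 DPT, and 5 and 1 of 7 tested in N cells, while their summed level was 97.7 FPKM in NFD cells, 60.4 in N cells, 197 in FD cells and 162 in GFP cells. In FD cells 3 were called higher and none lower of 6 tested. The median log2 fold change of the neuron markers tested at 2 DPT was 4.31 in NFD, 3.49 in N and 2.08 in FD cells. Among the 12, DCX, an early neuronal marker named after its values were seen, stayed at or below 0.0738 FPKM in every group. Markers of skeletal and cardiac muscle summed to 126, 128 and 134 FPKM in NFD cells and to 163, 129 and 106 FPKM in N cells, against 1.78 to 2.92 FPKM in FD cells and 2.73 to 4.26 FPKM in GFP cells. At 2 DPT 3 of these were called higher and none lower of 6 tested in NFD cells and of 5 tested in N cells. In FD cells 2 were lower and none higher of 4 tested. Of all genes tested at 2 DPT, 34.1% were higher and 32% lower in NFD cells. The shares were 27.1% and 30% in N cells, and 16.9% and 21.6% in FD cells. The part of these marker changes in the channel results was not tested.

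Potassium channels let potassium leave the cell and hold its resting potential negative, while voltage-gated sodium and calcium channels carry inward current and HCN channels carry pacemaker current. Fibroblasts are not excitable, yet they express several of these genes, in particular the large-conductance channel KCNMA1 and inward rectifiers. Auxiliary subunits (KCNE, KCNIP, KCNAB, KCNMB, SCN beta, CACNA2D, CACNB) bind the pores and set their trafficking and gating.

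Summed potassium channel RNA was higher in NFD and N cells than in GFP cells at each time, and summed sodium channel pore RNA ended lower in NFD than in N cells. The 60 potassium members summed to 114, 162 and 194 FPKM in NFD cells at 0.5, 1 and 2 DPT, and to 105, 112 and 124 FPKM in N cells. In FD cells they summed to 63.0, 57.1 and 72.6 FPKM, and in GFP cells to 52.0, 56.3 and 66.3 FPKM. The 8 two-pore genes alone summed to 73.2 FPKM in NFD cells at 2 DPT, 35.4 in N cells, 11.4 in FD cells and 14.9 in GFP cells. Voltage-gated potassium pores summed to 39.0 FPKM in NFD cells at 2 DPT, 25.9 in N cells, 17.6 in FD cells and 13.6 in GFP cells. Auxiliary subunits summed to 35.6 FPKM in NFD cells, 21.3 in N cells, 21.8 in FD cells and 10.1 in GFP cells, and inward rectifiers to 32.5 FPKM in NFD cells, 31.6 in N cells, 8.12 in FD cells and 13.3 in GFP cells. The 8 sodium channel pore genes went the other way in NFD cells, with 47.4, 24.4 and 12.1 FPKM, while N cells held 55.1, 56.8 and 56.7 FPKM. FD cells had 14.1, 21.9 and 27.4 FPKM of these pore genes and GFP cells 26.4, 35.9 and 41.6 FPKM. Calcium channel sums at 2 DPT were 26.8 FPKM in NFD cells, 33.8 in N cells, 57.2 in FD cells and 47.7 in GFP cells. The median calcium gene was at 0.712 FPKM in NFD, 0.845 in N, 0.336 in FD and 0.328 in GFP cells. CACNB3 alone made up 57.3% of the calcium sum in GFP cells. Such medians depend on the filter of 0.2 FPKM in any group. CACNA2D2, CACNG5 and CACNG6 passed it only through NFD or N cells, and CACNA1G and CACNG7 only through FD or GFP cells. The sums follow a few abundant genes: KCNK12 made up 22.4% of the potassium sum in NFD cells at 2 DPT, and SCN7A 57.5% of all sodium channel RNA in N cells. Of the sodium pore sum, SCN7A made up 76.7%, 82.8% and 85.5% in N cells at 0.5, 1 and 2 DPT. Its share was 79.8%, 67.9% and 57.6% in NFD cells, and 48.8% in GFP cells at 2 DPT. Of the 7 pore genes tested in N cells at 2 DPT, 1 was called higher, SCN7A, and 4 lower (all genes, 27.1% and 30%).

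**Figure D1:**
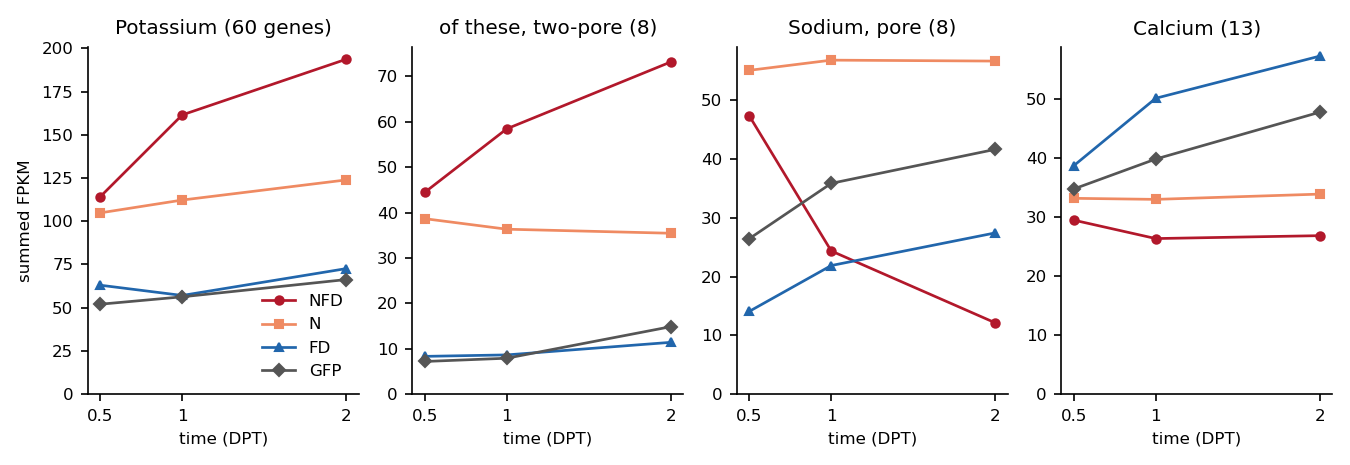
Summed FPKM (y axis, from 0) of 60 potassium, 8 two-pore potassium, 8 sodium pore and 13 calcium channel genes against time in DPT, 1 line per condition and 1 deposited value per group and gene, with no error to show. The potassium sum climbs to 194 FPKM in NFD cells while the sodium pore sum ends at 12.1 FPKM, below the 41.6 FPKM of GFP cells.

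In NFD cells at 0.5 DPT, 24 members were called higher and 13 lower of 47 tested in the authors' deposited tables, where 32.1% of all genes tested were higher and 31.3% lower, 63.4% either way. At 1 DPT 25 were higher and 17 lower of 53 (all genes, 32.6% and 33.2%, 65.8% either way), and at 2 DPT 30 were higher and 19 lower of 59 (34.1% and 32%, 66.1% either way). For N cells the authors' deposited tables called 26 higher and 12 lower of 46 members at 0.5 DPT, against 26.2% and 24.3% of all genes, 50.5% either way. At 1 DPT N cells had 27 higher and 14 lower of 52 (25.4% and 29.3%, 54.7% either way), and at 2 DPT 24 higher and 16 lower of 52 (27.1% and 30%, 57.1% either way).

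FD cells differed: 7 members were called higher and 18 lower of 35 tested at 0.5 DPT in the authors' deposited tables, against 17.8% and 18.8% of all genes, 36.6% either way. At 1 DPT the counts were 11 higher and 13 lower of 35 (16% and 22.3%, 38.3% either way), and at 2 DPT 12 and 13 of 40 (16.9% and 21.6%, 38.5% either way). The median log2 fold change of tested members in the authors' deposited tables was 0.67, 0.93 and 1.45 in NFD cells, 0.89, 0.75 and 0.60 in N cells, and -0.30, -0.30 and -0.04 in FD cells, while the median of all genes tested lay between -0.04 and 0.04. Members at a very low level in both groups were mostly not tested, and a silent gene passes only where it is high, so these counts and medians cover the tested members alone. Of the 86 members, 63 were called in at least 1 of the 9 tables, 20 were tested in none and 30 in all 9. Of all genes tested in at least 1 table, 88.6% were called in at least 1. KCNMA1, SCN8A and SCN9A were lower in all 9, and CACNA1C was higher in all 9, where 3.99% and 1.86% of all genes tested in all 9 tables were.

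**Figure D2:**
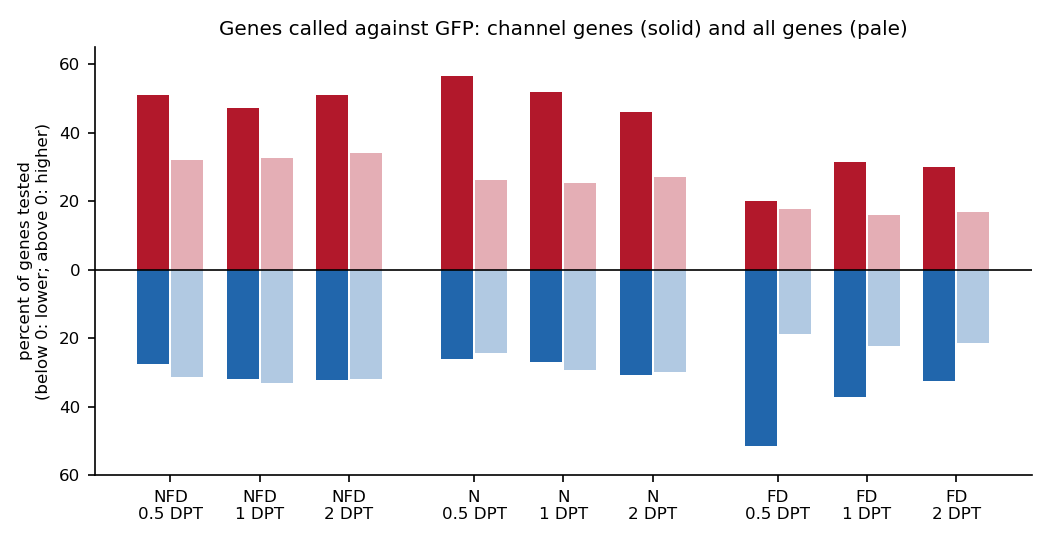
Percent of tested genes called higher (above 0, red) or lower (below 0, blue) than GFP in each of the 9 deposited tables, for channel genes (solid bars) and all genes tested (pale bars). Channel genes called higher exceed the pale bars in NFD and N cells (24 to 30 of 46 to 59 genes tested), and in FD cells at 0.5 DPT 18 of 35 were lower. The solid bars cover only genes that passed the filter of 0.2 FPKM in any group, which a silent gene passes only where it is high.

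Two-pore channels carry the background leak of potassium. KCNK6 (chr19:38810483-38819649 in hg19), a member of the weakly inward rectifying two-pore group, had 25.0, 31.4 and 24.2 FPKM in NFD cells and 8.22, 8.53 and 9.55 FPKM in N cells at 0.5, 1 and 2 DPT. It had 3.19, 2.73 and 1.38 FPKM in FD cells and 1.26, 1.63 and 1.12 FPKM in GFP cells. NFD cells were thus listed highest at each time and N cells second. The gap between NFD and N cells was not called by the approximate test described below (adjusted p of 0.54, 0.42 and 0.602). In the authors' deposited tables its log2 fold change was 4.31, 4.27 and 4.43 in NFD cells, each with an implied standard error of at most 1.09, and 2.71, 2.39 and 3.1 in N cells (at most 0.76), all at the smallest q of 0.000151. FD cells rose by 1.34 and 0.74 at 0.5 and 1 DPT in those deposited tables and were at 0.30 at 2 DPT (q = 0.149).

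KCNK12 (chr2:47747914-47797470), a two-pore subunit known to stay largely inside the cell, had 8.97, 20.7 and 43.3 FPKM in NFD cells and 7.72, 11.1 and 7.31 FPKM in N cells. FD cells had 0.0906, 0.0202 and 0.124 FPKM, and GFP cells 0.252, 0.0332 and 0.112 FPKM. At 43.3 FPKM it was the most abundant member in NFD cells at 2 DPT. The authors' deposited tables call it at 0.5 DPT, with log2 fold changes of 5.16 in NFD and 4.94 in N cells (q = 0.00107 for both). At 1 and 2 DPT the deposited tables give larger fold changes with q of 0.297 and 0.169, beside 0.0332 and 0.112 FPKM in GFP cells. The implied standard error at 2 DPT was 5.38 beside a fold change of 8.59 in NFD cells. The approximate test described below called no difference between NFD and N cells at any time (adjusted p of 0.961, 0.964 and 0.858).

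KCNK2 (chr1:215178884-215410436), a channel opened by stretch and lipids, was the most abundant potassium member of GFP cells at 2 DPT. It had 8.70, 3.54 and 2.37 FPKM in NFD cells, 21.4, 15.4 and 17.6 FPKM in N cells, 4.01, 4.79 and 8.54 FPKM in FD cells and 4.92, 5.52 and 12.6 FPKM in GFP cells. N cells were the highest at each time, and NFD cells the lowest at 1 and 2 DPT. Its log2 fold change in the authors' deposited tables was 0.82, -0.64 and -2.41 in NFD cells and 2.12, 1.48 and 0.48 in N cells, all called. KCNK3, an acid-sensitive two-pore channel, was listed at 0.505, 1.28 and 1.14 FPKM in NFD cells and 0.407, 0.641 and 0.248 FPKM in N cells, with at most 0.135 FPKM in FD cells and 0.026 FPKM in GFP cells.

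Inward rectifiers pass potassium near rest and close on depolarisation. KCNJ6 (chr21:38996785-39288696), which forms G protein-gated channels in neurons, was near silent without NEUROG2. It had 3.37, 9.45 and 21.3 FPKM in NFD cells and 10.9, 14.5 and 20.7 FPKM in N cells, against 0.0213, 0.013 and 0.159 FPKM in FD cells and 0.1, 0.105 and 0.159 FPKM in GFP cells. NFD cells stood below N cells at 0.5 DPT and close to them at 2 DPT. Its log2 fold change in the authors' deposited tables was 5.07, 6.49 and 7.07 in NFD cells and 6.76, 7.11 and 7.03 in N cells, with implied standard errors of at most 1.75. No time was called between NFD and N cells by the approximate test described below (adjusted p of 0.698, 0.893 and 0.994). Its upper bound on the standard error was 2.36 to 2.48 beside differences of -1.69, -0.62 and 0.04, so the test does not show equal levels. Its usual partner KCNJ3 was listed at 0 in all 3 groups of NFD cells and at 0.0218 FPKM or less in N cells.

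KCNJ2 (chr17:68165675-68176183), the classical strong inward rectifier, had 5.15, 7.60 and 7.09 FPKM in NFD cells, 4.94, 8.07 and 7.47 in N cells, 0.514, 2.64 and 5.72 in FD cells and 2.03, 4.62 and 11.3 in GFP cells. GFP cells themselves climbed, and NFD and N cells stood above them at 0.5 and 1 DPT and below them at 2 DPT. The authors' deposited tables give log2 fold changes of 1.35, 0.72 and -0.67 in NFD cells, 1.29, 0.80 and -0.59 in N cells and -1.98, -0.81 and -0.98 in FD cells, all called. KCNJ8, the pore of an ATP-sensitive channel and named here after its values were seen, was at 1.09, 1.01 and 1.06 FPKM in NFD cells, 2.44, 2.02 and 2.16 in N cells, 1.05, 1.18 and 1.13 in FD cells and 1.44, 1.41 and 1.33 in GFP cells.

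**Figure D3:**
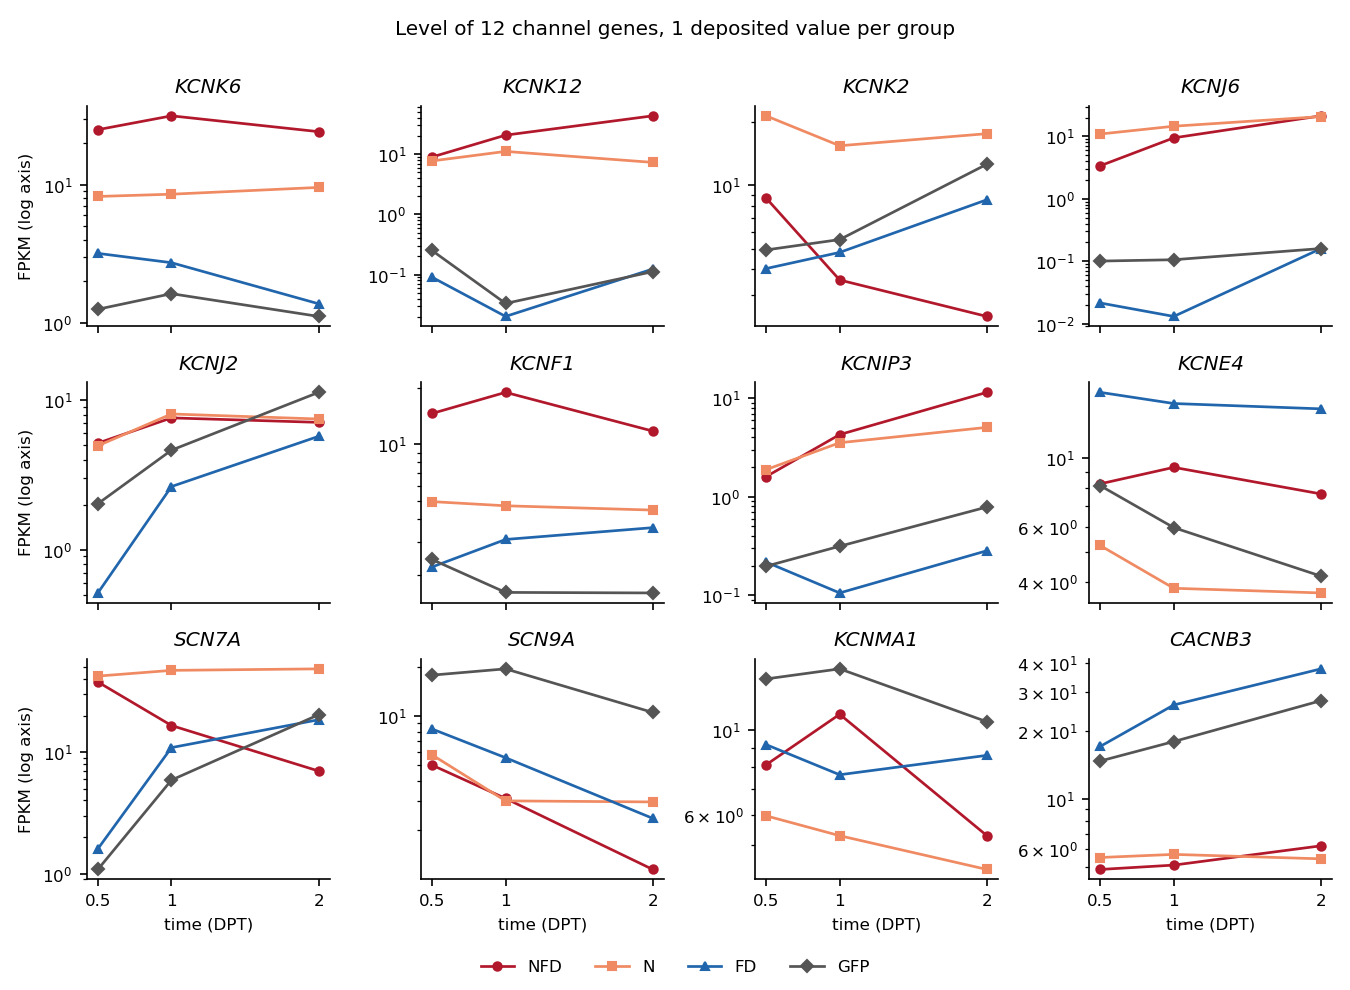
FPKM on a log axis against time in DPT for 12 channel genes, 1 line per condition and 1 deposited value per point, with no error to show. KCNK6, KCNK12, KCNJ6, KCNF1 and KCNIP3 sit above GFP cells in both NFD and N cells, SCN7A and KCNK2 end at 6.98 and 2.37 FPKM in NFD cells, the lowest of the 4 conditions, and CACNB3 is low in NFD and N cells.

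Promoter sequences of 4 named genes are shown to set the known motifs of the 2 pathways beside the levels. They are TGACGTCA, the element bound by the cyclic AMP-responsive factor CREB, and CANNTG, the E-box core that basic helix-loop-helix factors such as NEUROG2 bind. The 4 are not the largest changes. Among members called with at least 2-fold change and 1 FPKM, KCNF1 ranked 13 of 26 rises in NFD, 19 of 21 in N and 6 of 7 in FD cells. The RefSeq table (GRCh38.p14) gave a promoter for 63 of the 86 members, and the 250 bases before the annotated start were searched on both strands, on which both motifs read alike. KCNF1 lies at chr2:10911684-10911933 (plus strand), with capitals marking TGACGTCA. KCNK6 lies at chr19:38319595-38319844 (plus strand), SCN7A at chr2:166486972-166487221 (minus strand) and KCNJ6 at chr21:37916458-37916707 (minus strand), with capitals marking CANNTG.
KCNF1: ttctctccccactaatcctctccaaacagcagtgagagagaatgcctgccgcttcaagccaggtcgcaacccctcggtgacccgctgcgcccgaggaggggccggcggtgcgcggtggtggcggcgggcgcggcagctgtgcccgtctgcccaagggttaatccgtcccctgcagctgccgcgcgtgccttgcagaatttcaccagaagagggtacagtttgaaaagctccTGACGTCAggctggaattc
KCNK6: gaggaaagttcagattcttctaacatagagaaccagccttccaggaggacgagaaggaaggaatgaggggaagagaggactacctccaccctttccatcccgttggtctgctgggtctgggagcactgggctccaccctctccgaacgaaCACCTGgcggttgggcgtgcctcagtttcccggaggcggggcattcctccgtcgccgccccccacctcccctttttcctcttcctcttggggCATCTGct
SCN7A: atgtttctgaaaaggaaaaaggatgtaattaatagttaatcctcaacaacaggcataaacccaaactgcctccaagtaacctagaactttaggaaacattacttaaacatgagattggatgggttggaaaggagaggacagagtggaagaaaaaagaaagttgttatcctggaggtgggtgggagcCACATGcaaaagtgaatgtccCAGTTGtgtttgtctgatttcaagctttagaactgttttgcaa
KCNJ6: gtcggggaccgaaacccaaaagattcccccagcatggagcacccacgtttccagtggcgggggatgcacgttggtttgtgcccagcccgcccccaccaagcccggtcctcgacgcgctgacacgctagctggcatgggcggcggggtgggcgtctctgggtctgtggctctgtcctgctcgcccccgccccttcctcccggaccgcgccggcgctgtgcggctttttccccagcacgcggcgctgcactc
KCNF1 was the 1 member of 63 with the full TGACGTCA (1.59%), at -19 from the start, against 1.77% of 27305 promoters of all genes. The shorter element TGACG, counted on either strand and also inside the full element, was in 16 members (25.4%) and in 21.7% of all promoters. CANNTG was in 33 members (52.4%) and 62.2% of all promoters. KCNK6 has 2 matches, at -100 and -8, SCN7A has 2, at -64 and -43, and KCNJ6 has none. KCNF1 also holds 2 CANNTG matches, both CAGCTG, which are not in capitals. These are matches of letters, not measured binding.

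Among voltage-gated potassium pores, KCNF1 (chr2:11052062-11054351), a modifier subunit that is silent alone, rose in all 3 conditions. It had 14.6, 18.9 and 11.7 FPKM in NFD cells, 4.93, 4.69 and 4.45 in N cells, 2.21, 3.1 and 3.58 in FD cells and 2.43, 1.62 and 1.61 in GFP cells. NFD cells exceeded N cells at each time, and FD cells exceeded GFP cells at 1 and 2 DPT. Its log2 fold change in the authors' deposited tables was 2.59, 3.54 and 2.87 in NFD cells (implied standard errors of at most 0.87), 1.02, 1.53 and 1.47 in N cells (at most 0.38) and -0.13, 0.94 and 1.16 in FD cells, where the first was not called (q = 0.499). The gap between NFD and N cells was not called (adjusted p of 0.291, 0.287 and 0.37), with an upper bound on the standard error of 0.90 to 1.24 beside differences of 1.4 to 2.01.

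KCNG1, another modifier subunit, had 4.24, 6.22 and 8.34 FPKM in NFD cells, 3.35, 2.32 and 2.35 in N cells, 16.4, 6.56 and 6.93 in FD cells and 4.04, 5.21 and 5.49 in GFP cells. FD cells at 0.5 DPT stood far above the other groups, and N cells were lowest at each time. In the authors' deposited tables it was higher in FD cells at every time (log2 fold change 2.02, 0.33 and 0.34) and lower in N cells at 1 and 2 DPT (-1.16 and -1.22).

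KCNC4, of the fast-deactivating family used by rapidly firing neurons, had 0.731, 2.34 and 4.51 FPKM in NFD cells and 1.32, 1.98 and 2.75 in N cells, against at most 0.179 FPKM in FD and 0.196 FPKM in GFP cells. Its log2 fold change reached 4.53 in NFD and 3.81 in N cells at 2 DPT in the authors' deposited tables. KCNH1, an ether-a-go-go channel, had 0.372, 0.701 and 0.858 FPKM in NFD cells and 1.10, 2.06 and 3.96 in N cells, with at most 0.188 FPKM in FD and 0.187 FPKM in GFP cells. KCNQ5, a subunit of the M-current, likewise was highest in N cells: 0.813, 0.699 and 0.770 FPKM in NFD cells, 3.28, 3.02 and 2.63 in N cells, 0.478, 0.321 and 0.787 in FD cells and 0.576, 0.368 and 0.214 in GFP cells. By the approximate test described below, the gap between NFD and N cells was not called for KCNQ5 (adjusted p of 0.143, 0.181 and 0.368). For KCNH1 it was not called at 1 and 2 DPT (0.411 and 0.358) and not tested at 0.5 DPT. The KCNQ5 locus holds a microRNA row as well, so its reads could be shared.

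KCNA3 and KCNH3 were called higher in NFD cells at 2 DPT alone among the 9 deposited tables, with log2 fold changes of 4.88 and 5.01 in the authors' deposited table. KCNA3, a delayed rectifier known from lymphocytes, had 0.738, 1.91 and 2.68 FPKM in NFD cells and 0.499, 0.606 and 0.420 in N cells, against at most 0.0453 FPKM in FD and 0.091 FPKM in GFP cells. KCNH3, an ether-a-go-go-like gene of the forebrain, had 0.411, 0.848 and 1.37 FPKM in NFD cells and 0.315, 0.325 and 0.411 in N cells, with at most 0.0559 FPKM in FD and 0.0428 FPKM in GFP cells. Whether either gene differed between NFD and N cells at 2 DPT was not tested, as N was not tested against GFP there. KCNS2, a modifier subunit, had 1.79, 1.95 and 0.755 FPKM in NFD cells, 1.03, 1.12 and 0.742 in N cells, 0.0414, 0.17 and 0.590 in FD cells and 0.0485, 0.0521 and 0.235 in GFP cells.

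Other voltage-gated pores were called lower in at least 1 condition. KCND2, which carries transient A-type current, had 0.131, 0.123 and 0.162 FPKM in NFD cells, 0.0533, 0.0728 and 0.0582 in N cells, 0.281, 0.719 and 1.33 in FD cells and 0.690, 0.797 and 1.18 in GFP cells. The fall in NFD cells was -2.40, -2.69 and -2.87 and in N cells -3.70, -3.45 and -4.35 as log2 fold changes in the authors' deposited tables. KCNS3, a further modifier, had 0.541, 0.279 and 0.459 FPKM in NFD cells, 1.90, 1.19 and 1.24 in N cells, 0.543, 0.608 and 0.655 in FD cells and 1.16, 1.48 and 1.80 in GFP cells. Both conditions that received the molecules were low at each time. In N cells KCNS3 was called higher at 0.5 DPT and lower at 2 DPT in the authors' deposited tables (log2 fold change 0.71 and -0.54).
KCND1, a relative of KCND2, had 0.653, 0.396 and 0.390 FPKM in NFD cells, 2.41, 1.56 and 0.890 in N cells, 0.536, 0.838 and 0.894 in FD cells and 0.771, 1.05 and 0.931 in GFP cells. The authors' deposited tables call KCND1 lower in NFD cells at 1 and 2 DPT (-1.4 and -1.26) and higher in N cells at 0.5 and 1 DPT (1.65 and 0.58).

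Calcium-activated channels split by member. KCNMA1 (chr10:78629358-79397577), the large-conductance pore and among the most abundant channels of these fibroblasts, had 8.11, 11.0 and 5.29 FPKM in NFD cells, 5.97, 5.29 and 4.32 in N cells, 9.17, 7.64 and 8.59 in FD cells and 13.6, 14.5 and 10.5 in GFP cells. GFP cells were highest at each time. Its log2 fold change in the authors' deposited tables ran between -0.29 and -1.45 over the 9 comparisons. KCNN3, a small-conductance pore, was near 0 in cells without NEUROG2. It had 0.845, 2.56 and 2.06 FPKM in NFD cells and 0.627, 0.941 and 0.836 in N cells, against at most 0.0261 FPKM in FD and 0.0243 FPKM in GFP cells. KCNN2, another small-conductance pore, had 3.09, 3.32 and 1.55 FPKM in NFD cells, 0.626, 0.563 and 0.533 in N cells, 0.607, 0.329 and 0.443 in FD cells and 2.09, 0.698 and 0.479 in GFP cells. NFD cells thus stood above all other groups, and at 0.5 DPT N and FD cells were both below GFP cells.

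Among auxiliary potassium subunits, KCNE4 (chr2:223916861-223920355), a subunit that inhibits several potassium pores, had 8.24, 9.30 and 7.65 FPKM in NFD cells, 5.23, 3.82 and 3.69 in N cells, 16.2, 14.9 and 14.3 in FD cells and 8.13, 5.97 and 4.18 in GFP cells. FD cells were highest and N cells lowest at each time. In the authors' deposited tables FD cells were higher at all times (log2 fold change 0.99, 1.32 and 1.78) and N cells lower at 0.5 and 1 DPT (-0.64 each). KCNE3, a relative that keeps some pores open, had 0.142, 0.822 and 1.35 FPKM in FD cells and 0.0824, 0.199 and 0.336 in GFP cells, with 0.226 FPKM or less in NFD and N cells.

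KCNIP3, a calcium sensor that binds A-type pores and also acts as a transcriptional repressor, had 1.60, 4.28 and 11.5 FPKM in NFD cells, 1.89, 3.54 and 5.07 in N cells, 0.217, 0.105 and 0.283 in FD cells and 0.197, 0.314 and 0.786 in GFP cells. It rose in both NEUROG2 conditions while KCND2, one of the pores it binds, fell. The other KCND genes did not all fall. KCND3, named after its values were seen, was called higher in NFD cells at 2 DPT (log2 fold change 3.85 in the authors' deposited table). KCND1 was called higher in N cells at 0.5 and 1 DPT and lower in NFD cells at 1 and 2 DPT. For KCNIP3 the log2 fold change at 2 DPT in the authors' deposited tables was 3.87 in NFD, 2.69 in N and -1.48 in FD cells. KCNMB4, a beta subunit of KCNMA1 known from neurons, had 0.700, 0.892 and 2.18 FPKM in NFD cells, 1.38, 2.23 and 4.19 in N cells, 0.179, 0.359 and 0.572 in FD cells and 0.114, 0.287 and 0.524 in GFP cells. KCNAB1, a cytoplasmic beta subunit, had 0.570, 2.01 and 6.93 FPKM in NFD cells and 0.157, 0.301 and 1.22 in N cells, with at most 0.149 FPKM in FD and 0.0464 FPKM in GFP cells. The authors' deposited table at 2 DPT leaves KCNAB1 uncalled (q = 0.335) with GFP cells at 0.00959 FPKM, although it was called in NFD cells at 0.5 and 1 DPT. KCNE1L had 0.885, 1.34 and 0.930 FPKM in NFD cells, 1.84, 2.28 and 1.82 in N cells, 0.485, 0.578 and 0.936 in FD cells and 0.248, 0.239 and 0.277 in GFP cells.

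The noncoding KCNQ1OT1 had 2.46, 3.13 and 2.81 FPKM in NFD cells, 1.05, 1.23 and 1.51 in N cells, 1.41, 1.44 and 2.23 in FD cells and 1.19, 1.33 and 1.03 in GFP cells. It was called higher at all 3 times in NFD cells in the authors' deposited tables. It shares its locus row with KCNQ1, listed at 0.560, 1.29 and 2.56 FPKM in NFD cells and at most 0.0104 FPKM in GFP cells. The library kit keeps strand, but whether counting used it is not given in the sources used here, so the pair may exchange reads. In all, 13 members lie in loci with the coordinates of another row, among them HCN3, KCNT2, KCNQ5, CACNA1H and CACNA2D3, and KCNJ18 has a near-identical copy in KCNJ12.

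**Figure D4:**
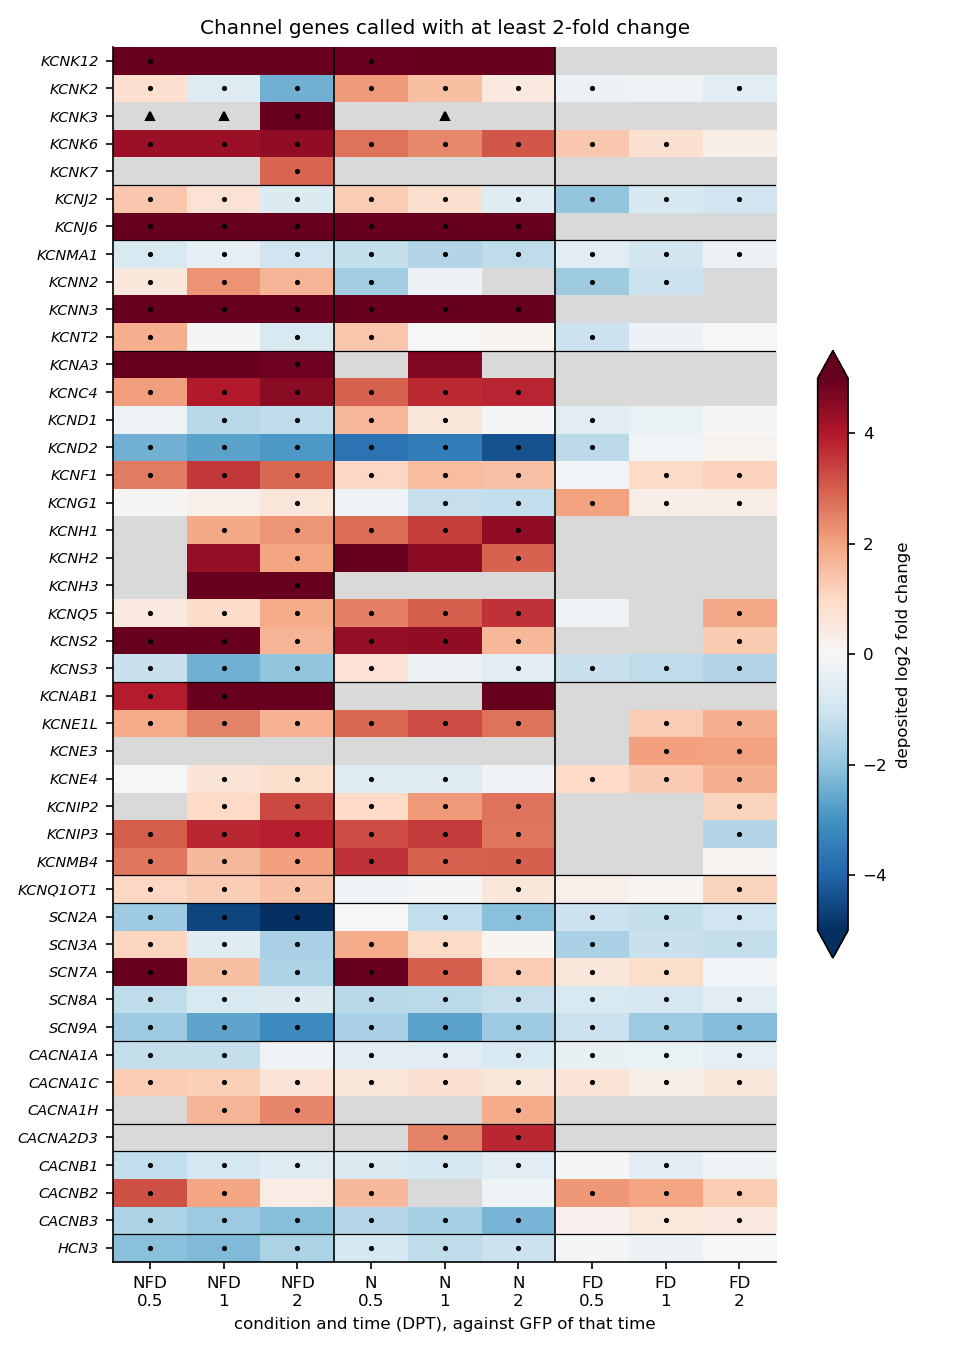
Deposited log2 fold change against GFP (colour, limited at 5 either way) for 44 of the channel genes called with at least 2-fold change, in NFD, N and FD cells at 0.5, 1 and 2 DPT. Dots mark q at or under 0.05, triangles a call with GFP listed at 0, and grey means not tested or no finite fold. KCNJ6 and KCNN3 are dark red in NFD and N cells and not tested in FD cells, and SCN9A is blue in all 9 columns.

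Most sodium channel pores were lower in FD cells: 5 of the 6 tested at 2 DPT were called lower and none higher in the authors' deposited table, and SCN7A was the sixth (21.6% of all genes tested were lower). In NFD cells at 2 DPT all 6 tested were lower (32% of all genes), and in N cells 4 were lower (30% of all genes) and 1 higher of 7. SCN9A (chr2:167051696-167232497), known from pain-sensing neurons, was the leading pore of GFP cells at 0.5 and 1 DPT. It had 5.01, 3.13 and 1.15 FPKM in NFD cells, 5.78, 3.02 and 2.98 in N cells, 8.32, 5.55 and 2.36 in FD cells and 17.8, 19.4 and 10.5 in GFP cells. GFP cells were above all others at each time. By the authors' deposited tables its log2 fold change was -1.83, -2.63 and -3.19 in NFD cells, -1.62, -2.68 and -1.82 in N cells and -1.09, -1.80 and -2.15 in FD cells, with implied standard errors of at most 0.79.

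SCN7A (chr2:167260082-167343481) encodes an atypical channel that senses extracellular sodium rather than voltage. It had 37.8, 16.5 and 6.98 FPKM in NFD cells, 42.2, 47.1 and 48.5 in N cells, 1.60, 10.9 and 18.5 in FD cells and 1.08, 5.88 and 20.3 in GFP cells. N cells stayed high, NFD cells fell with time, and FD and GFP cells climbed. By the authors' deposited tables its log2 fold change was 5.13, 1.49 and -1.54 in NFD cells, 5.29, 3 and 1.25 in N cells and 0.56, 0.89 and -0.14 in FD cells, the last not called (q = 0.302).

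SCN2A and SCN3A, pores of brain neurons, lie in the same stretch of chromosome 2. SCN2A had 0.455, 0.127 and 0.0747 FPKM in NFD cells, 1.58, 1.3 and 0.821 in N cells, 0.770, 1.37 and 1.73 in FD cells and 1.61, 3.1 and 3.45 in GFP cells. In NFD cells at 2 DPT the authors' deposited table gives SCN2A a log2 fold change of -5.53 (implied standard error at most 1.36), the greatest fall of any member at 1 FPKM or more in the higher group. SCN3A had 1.4, 0.755 and 0.413 FPKM in NFD cells, 2.40, 2.25 and 1.34 in N cells, 0.215, 0.541 and 0.544 in FD cells and 0.659, 1.16 and 1.26 in GFP cells. SCN8A, the pore of axon initial segments, had 1.97, 3.11 and 2.98 FPKM in NFD cells, 1.83, 2.08 and 2.13 in N cells, 2.79, 2.95 and 3.20 in FD cells and 4.74, 5.33 and 4.72 in GFP cells.

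Calcium channel genes moved in different directions by subunit. CACNB3 (chr12:49208214-49222726), a beta subunit that brings pores to the membrane, was the most abundant member of FD and GFP cells at 2 DPT. It had 4.86, 5.08 and 6.19 FPKM in NFD cells, 5.49, 5.67 and 5.42 in N cells, 17.1, 26.1 and 37.8 in FD cells and 14.7, 18.0 and 27.3 in GFP cells. NFD and N cells were well below both others. By the authors' deposited tables its log2 fold change was -1.60, -1.82 and -2.14 in NFD cells, -1.42, -1.67 and -2.33 in N cells and 0.22, 0.54 and 0.47 in FD cells, the first of these not called (q = 0.109). CACNB2 had 1.68, 1.24 and 0.712 FPKM in NFD cells, 0.566, 0.447 and 0.459 in N cells, 0.825, 1.22 and 1.33 in FD cells and 0.184, 0.312 and 0.547 in GFP cells.

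CACNA1C, the L-type pore, had 1.66, 2.71 and 3.26 FPKM in NFD cells, 1.04, 2.00 and 3.12 in N cells, 1.08, 1.48 and 3.05 in FD cells and 0.680, 1.19 and 2.06 in GFP cells. CACNA1A, the presynaptic P/Q-type pore, had 0.732, 0.867 and 2.15 FPKM in NFD cells, 1.13, 1.35 and 1.44 in N cells, 1.31, 1.56 and 1.75 in FD cells and 1.69, 1.96 and 2.43 in GFP cells. It was called lower in 8 of the 9 deposited tables, NFD at 2 DPT being the exception (q = 0.233 in the authors' deposited table). CACNA2D1, the subunit bound by gabapentin, had 17.6, 12.9 and 9.63 FPKM in NFD cells, 21.3, 19.9 and 18.5 in N cells, 14.3, 16.9 and 9.61 in FD cells and 13.4, 14.6 and 11.4 in GFP cells. CACNA2D3 rose to 1.22 FPKM in N cells at 2 DPT, beside 0.332 in NFD, 0.336 in FD and 0.0883 in GFP cells. Gamma subunits stayed below 0.5 FPKM in every group. CACNG5 had 0.219, 0.312 and 0.464 FPKM in NFD cells and 0.0857, 0.191 and 0.282 in N cells, and was listed at 0 in FD and GFP cells, with no test in the deposited tables.

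HCN2 had 0.825, 1.31 and 1.64 FPKM in NFD cells, 1.35, 1.43 and 2.07 in N cells, 1.19, 1.03 and 1.25 in FD cells and 1.41, 1.31 and 2.31 in GFP cells. HCN3, which shares its row with PKLR, had 0.206, 0.204 and 0.339 FPKM in NFD cells, 0.477, 0.390 and 0.482 in N cells, 0.859, 0.770 and 1.03 in FD cells and 0.883, 0.945 and 1.02 in GFP cells, and was called lower in NFD and N cells at all times in the authors' deposited tables.

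NFD and N cells were compared with an approximate test, since the authors' deposited tables hold none: the difference of the 2 deposited log2 fold changes over a standard error implied by their p-values, adjusted over all genes. Because those errors are upper bounds, a difference that misses the threshold does not show that the conditions act alike. At 0.5 DPT 3 members were higher and 3 lower in NFD than in N cells of 41 tested, against 7.27% of all genes called either way (3.29% higher, 3.98% lower). At 1 DPT 4 were higher and 5 lower of 47 (11.5%: 6.02% higher, 5.49% lower), and at 2 DPT 2 were higher and 6 lower of 48 (12%: 6.31% higher, 5.69% lower).

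KCNE4 was higher in NFD than in N cells at all 3 times, by 0.65, 1.28 and 1.05 on the log2 scale (adjusted p of 0.046, 1.8e-05 and 0.00975 by the approximate test across all genes). KCNG1 was higher by 1.42 at 1 DPT and 1.82 at 2 DPT (adjusted p of 0.00935 and 0.000815). KCNN2 was higher by 2.30 at 0.5 DPT and 2.56 at 1 DPT (adjusted p of 0.00679 and 0.0164), and KCNQ1OT1 by 1.23 and 1.35 (0.0198 and 0.0221). KCNJ8 was lower in NFD than in N cells at all 3 times (-1.16, -1 and -1.03, adjusted p of 0.00173, 0.00575 and 0.00404). At 1 DPT KCNK2 was lower by -2.12 (adjusted p of 0.00165), SCN3A by -1.57 (0.000206) and CACNA2D1 by -0.63 (0.00372). At 2 DPT SCN7A was lower by -2.80 (adjusted p of 4.27e-05), KCNK2 by -2.89 (0.01), SCN3A by -1.70 (0.0275), CACNA2D1 by -0.94 (0.0031) and KCNT2, named after its values were seen, by -0.88 (0.0138). KCND1 was lower at 0.5 and 1 DPT (-1.89 and -1.98, adjusted p of 0.0232 and 0.00191) and KCNS3 at 0.5 DPT (-1.81, 0.00052).

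**Figure D5:**
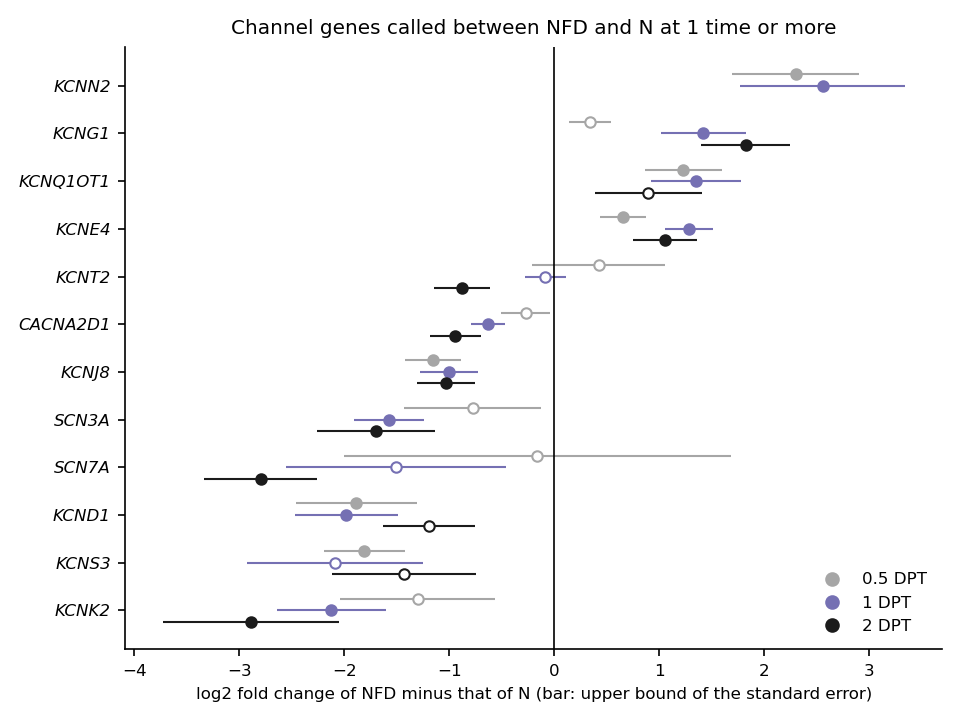
Difference between the deposited log2 fold changes of NFD and N cells (x axis, bars are the upper bound of the standard error) for the 12 channel genes called at 1 time or more, with 1 point per time. Filled points passed the approximate test at an adjusted p of 0.05 and open points did not. KCNE4 is to the right of 0 and KCNJ8 to the left at all 3 times.

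Some fold changes differed between 2 and 0.5 DPT by the same kind of test, which was called for 14 of 45 members in NFD cells (22.6% of all genes), 12 of 44 in N cells (12.5%) and 7 of 33 in FD cells (10.8%). The fold was smaller at 2 DPT for 10 of the 14 in NFD cells (12% of all genes tested were smaller and 10.6% greater) and for 11 of the 12 in N cells (7.48% smaller and 4.99% greater). In FD cells 5 were greater and 2 smaller (5.02% greater and 5.83% smaller). The authors' deposited tables call 5 of 45 members higher at 0.5 DPT and lower at 2 DPT in NFD cells (2.45% of all genes), 2 of 44 in N cells (1.53%) and 0 of 33 in FD cells (0.843%). Levels in GFP cells also moved: SCN7A was listed at 20.3 FPKM at 2 DPT and 1.08 FPKM at 0.5 DPT in GFP cells, and KCNJ2 at 11.3 and 2.03 FPKM. In N cells SCN7A was at 42.2 and 48.5 FPKM at 0.5 and 2 DPT while its fold became smaller.

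Some low members had higher listed levels in FD cells at 2 DPT than in FD cells at earlier times. KCNA2 was listed at 0.597 FPKM there and at 0 at 0.5 and 1 DPT, KCNC1 at 0.454 FPKM, KCNJ3 at 0.244 FPKM and KCNH7 at 0.223 FPKM, names chosen after their values were seen. KCNA2 was not called there in the authors' deposited table (log2 fold change 4.21, q = 0.305) and the others were not tested. In FD cells at 2 DPT the neuronal RNAs ELAVL4, STMN2, RBFOX3 and SNAP25 were listed at 0.484, 0.389, 0.326 and 20.6 FPKM. In GFP cells at 2 DPT they were listed at 0, 0.00872, 0.00891 and 1.99 FPKM. They were chosen from the 12 neuron markers after their values were seen. Of the 12, 3 were called higher and none lower of 6 tested in FD cells at 2 DPT (all genes, 16.9% and 21.6%). The part of neuronal RNA in these channel values was not tested.

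Genes around the channels were counted from lists. Of 34 listed partners of channels found in the tables, 10 were called higher and 5 lower of 19 tested in NFD cells at 2 DPT, 10 and 7 of 18 in N cells, and 5 and 6 of 16 in FD cells in the authors' deposited tables. Of all genes tested at 2 DPT, 34.1% were higher and 32% lower in NFD cells, 27.1% and 30% in N cells, and 16.9% and 21.6% in FD cells, and the other list counts come from the same tables. The anchoring protein ANK2 stood at 30.3 FPKM in NFD cells, 15.8 in N cells, 7.41 in FD cells and 8.27 in GFP cells at 2 DPT. GEM, a small GTPase that inhibits calcium channels, stood at 8.89 FPKM in NFD cells, 10.8 in N cells, 109 in FD cells and 25.8 in GFP cells. Of the other cation and chloride channels, 6 were called higher and 15 lower of 28 tested at 2 DPT, 5 and 15 of 26 in N cells and 5 and 8 of 26 in FD cells in the authors' deposited tables. TRPA1, an irritant receptor, was listed at 1.85 FPKM in NFD cells, 2.21 in N cells, 41.4 in FD cells and 35.6 in GFP cells at 2 DPT.

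The shares of all genes given above apply to the next lists too, which are small. Of 12 cyclic AMP target genes, 8 were called higher and 1 lower of 11 tested in NFD cells at 2 DPT, 6 and 1 of 11 in N cells, and 10 and 0 of 12 in FD cells in the authors' deposited tables. Genes of the REST complex, the repressor of many neuronal channel genes and its partners, had 3 higher and 5 lower of 9 in NFD cells, 2 and 3 in N cells and 1 and 1 in FD cells at 2 DPT. REST itself was at 13.2 FPKM in NFD cells, 21.1 in N cells, 19.4 in FD cells and 19 in GFP cells. Of 30 channels typical of neurons, 3 were called higher and 5 lower of 9 tested in NFD cells at 2 DPT, 4 and 5 of 11 in N cells, and 0 and 5 of 7 in FD cells. Of 12 channels of skeletal and cardiac muscle found in the tables, 2 were higher and 3 lower of 7 tested in NFD cells, 2 and 3 of 6 in N cells, and 0 and 2 of 4 in FD cells. The channels on both lists are drawn from the same name families, so these counts overlap those above. Of 8 glial markers, 2 were higher and 1 lower of 3 tested in NFD cells at 2 DPT, 1 and 1 of 2 in N cells, and 2 and 0 of 2 in FD cells.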

How the data were processed

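Total RNA libraries of MRC-5 cells were made with a stranded kit and sequenced from 1 end, per the labels' protocols. The molecule label reads genomic DNA while the protocol describes RNA. The submitters' processing notes name TopHat 1.4.1, Cufflinks 2.1.0, Cuffdiff 2.1.0 and the build hg19 (GRCh37). Per the file headers, the authors deposited 9 tables with 1 FPKM value per group, a log2 fold change of the condition over GFP, a p-value and a q-value for each of 23146 loci. Rows the authors did not test were left out of counts, and no FPKM filter beyond 0.2 in any group was applied. Since the tables hold no values per library, the deposited test replaced limma, and depth per library and its precision are unknown.

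A standard error was implied by each deposited p-value as the size of the log2 fold change over the normal quantile. NFD was compared with N by an approximate two-sided z test on the difference of deposited log2 fold changes. Its standard error was the root of 2 times the larger of the pair, leaving out a table whose p was over 0.5. The p-values were Benjamini-Hochberg adjusted over all genes tested in both tables. The folds at 2 and 0.5 DPT were compared by the same kind of test, with the root of the sum of both squared standard errors and no limit of 0.5 on p. The difference test, with either kind of standard error, was tested on simulated fold changes that share a control. Folds at 2 and 0.5 DPT have separate GFP groups, so that simulation does not cover the comparison of times. Genes described with values were called with at least 2-fold change and at least 1 FPKM in the higher group, up to 12 per condition and direction, or lead their class in GFP cells at 2 DPT. Some genes that met this rule are not reported here. Any other gene named with a value was chosen after its values were seen. The members, the lists (fibroblast, neuron, muscle and glia markers, channel partners, REST complex, cyclic AMP targets, other cation and chloride channels, channels of neurons, channels of skeletal and cardiac muscle) and the tests were chosen with earlier results of these data known. Alternatives were thresholds, adjustment within a table, a 2-fold minimum, other level minimums, pseudocounts and recentring. Tools were scipy 1.17.1, pandas 2.3.3, matplotlib 3.10.9 and numpy 2.4.6 under Python 3.11.15.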

Additional observations from a re-analysis of the deposited data

Results flagged for a closer look

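The fold change over GFP at 2 DPT was set against that at 0.5 DPT, and in 7 cases the pair was called in opposite directions in the authors' deposited tables, higher at 0.5 DPT and lower at 2 DPT. They were 5 of 45 members tested at both times in NFD cells and 2 of 44 in N cells, while 2.45% and 1.53% of all genes were called in this way. The difference itself passed the approximate test across all genes in each case, which largely follows from the opposite calls. In NFD cells the 2 DPT fold minus the 0.5 DPT fold was -6.67 for SCN7A (adjusted p of 1.94e-05), -3.23 for KCNK2 (1.33e-05), -2.70 for SCN3A (2.14e-06), -2.57 for KCNT2 (6.84e-06) and -2.01 for KCNJ2 (4.05e-06). In N cells it was -1.88 for KCNJ2 (5.47e-06) and -1.25 for KCNS3 (8.59e-05). Beside these, SCN7A was listed at 6.98 and 37.8 FPKM at 2 and 0.5 DPT in NFD cells and at 20.3 and 1.08 FPKM in GFP cells. KCNJ2 was listed at 7.09 and 5.15 FPKM at 2 and 0.5 DPT in NFD cells, at 7.47 and 4.94 FPKM in N cells and at 11.3 and 2.03 FPKM in GFP cells. KCNT2 shares its row with a microRNA.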

How the results depend on the processing

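The counts of members called kept within 1.5 times under a q of 0.01, adjustment within each table, a 1 FPKM minimum and no minimum. A minimum of 2-fold left 12 of 25 members called in FD cells at 0.5 DPT, 11 of 24 at 1 DPT and 13 of 25 at 2 DPT, and kept the NFD and N counts within 1.5 times. For NFD against N, an adjusted p of 0.01 left 3 of 6 members at 0.5 DPT and 5 of 8 at 2 DPT, and each table's own standard error gave 10 at 0.5 DPT. Medians of all genes lay between -0.04 and 0.04, too near 0 for recentring to test the calls. A pseudocount of 1 moved 107 fold changes of named genes by more than their implied standard error and left 60, and a pseudocount of 0.1 moved 17 and left 150. The median FPKM of a family in place of its sum moved the log2 ratio over GFP by 0.5 or more in 19 of 36 cases, and turned its direction in 11: all 6 calcium ratios of NFD and N cells, 3 sodium ratios and 2 potassium ratios of FD cells. At 2 DPT the calcium log2 ratio over GFP was -0.83 by sums and 1.12 by medians in NFD cells and -0.50 and 1.37 in N cells, and the sodium ratio of N cells was 0.79 and -0.61. The medians depend on which low genes the filter of 0.2 FPKM in any group kept, so their direction is no separate result. No paired analysis was possible because the tables hold 1 value per group and none per library, and for the same reason no library could be left out.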
